A study of Homo sapiens with 2 samples.

Results

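GAPDH and 8 other genes of glucose uptake and glycolysis were examined in a map of HMGB2, an abundant chromatin protein of the high mobility group that bends the DNA it binds, made by chromatin immunoprecipitation and sequencing. The cells were IMR90, a line of human lung fibroblasts grown in 2% oxygen. Immunoprecipitation at day 2 gave 1 library of RAS-infected senescent cells and 1 of growing cells as the control, each from 10 ng of precipitated DNA and with the same rabbit antibody. The labels do not say which RAS gene or vector was used, or whether the control cells carried a vector. The measurements were 2 lists of called regions, 364 broad and 2792 narrow ones, with the senescent condition named before the growing one in both list names. The direction, higher in senescence, is read from that order alone. Each condition had 1 library and the lists hold no read counts, so sequencing depth is unknown for both and no difference has a replicate check.

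The 9 genes were chosen by name and hg19 position, with the region at GAPDH already known from these lists: GAPDH, TPI1, ENO1, ALDOA, LDHA, PGK1, PKM, SLC2A1 and SLC2A3. A region belonged to a gene when it lay within 5 kb of the gene span. By that rule, 1 of the 364 broad and 1 of the 2792 narrow regions belonged to the set, and both lay at GAPDH. The other 8 genes had none in either list. Since the choice used the lists, the counts, widths and distances below describe these genes and carry no test.

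Glycolysis splits glucose into pyruvate in the cytosol and yields ATP and NADH without oxygen. Glucose enters through facilitative carriers such as the products of SLC2A1 and SLC2A3. ALDOA cleaves the phosphorylated hexose, TPI1 interconverts the resulting trioses, GAPDH oxidises glyceraldehyde 3-phosphate, PGK1 and PKM make ATP, ENO1 makes phosphoenolpyruvate between them, and LDHA reduces pyruvate to lactate. Fibroblasts transcribe many of these genes strongly, and GAPDH is a common reference gene in expression assays and in chromatin immunoprecipitation.

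GAPDH spans chr12:6643585-6647537 of hg19, in the light Giemsa band 12p13.31, and is transcribed towards higher positions. Its broad region lay at chr12:6647421-6648481 and was 1060 bp wide. The region was thus at the end of the gene and not at its start. It began 3836 bp from the start of the gene, took in the last 116 bp of the gene span (2.94% of the span) and ran 944 bp past its end. The narrow region lay at chr12:6647819-6648083, from 282 to 546 bp past the end of the gene. Both had the same centre, at position 6647951, which is 414 bp past the end, and the broad region reached 398 bp beyond the narrow one on either side. No region of either list lay in the rest of the gene span or in the 5 kb before its start. Exons and untranslated parts were not placed, since a gene model and sequence of hg19 were not used here. In the order of protein-coding genes of the RefSeq table (GRCh38.p14), the gene after GAPDH is IFFO1, which encodes an intermediate filament family protein. Whether the region reaches it was not analysed here.

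**Figure D1:**
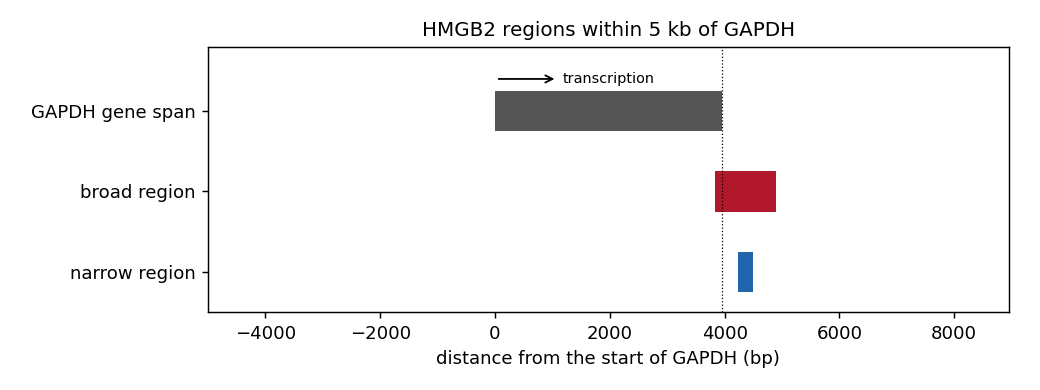
Map of the 5 kb around GAPDH, with the distance from the gene's start in bp on the horizontal axis and bars for the gene span, the broad region and the narrow region. The broad region starts 3836 bp from the gene's start, crosses the end of the gene (dotted line) and holds the narrow region at its centre.

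The smallest width in the broad list was 500 bp, shared by 311 regions, and 53 regions (14.6%) were wider. The GAPDH region was among the wider ones and stood near the middle of them, with 25 regions wider than it and a median of 1048 bp over the 53. The regions next to it in width measured 1064 bp on chromosome 11 and 1048 bp on chromosome 22. It stood at place 19 of 364 in the deposited order, and its narrow region at place 12 of 2792. The sources used here do not say what the order stands for. Wide regions filled the first places of the list: all 19 regions down to the one at GAPDH were wider than 500 bp, the first region of 500 bp stood at place 32, and the last wide one at place 76. Of those 19 regions, 13 overlapped a narrow region by at least 1 bp. Over the whole list, 100 of the 364 broad regions and 21 of the 53 wide ones did. All of the first 12 narrow regions, the one at GAPDH included, overlapped a broad region, while the 2792 narrow regions made 101 such pairs in all.

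**Figure D2:**
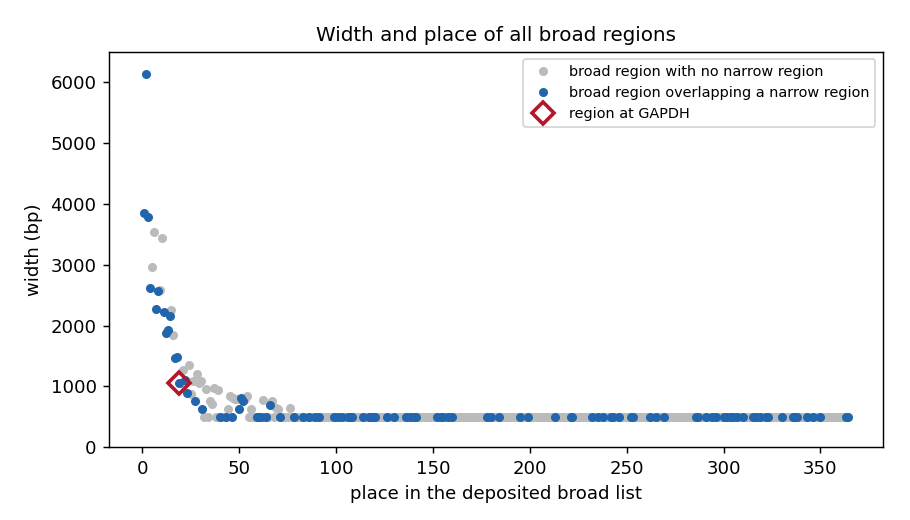
Width in bp of each of the 364 broad regions against its place in the deposited list, with blue points for regions that overlap a narrow region and a red diamond for the one at GAPDH. The GAPDH region, 1060 bp at place 19, lies at the foot of the steep fall in width, and 311 regions lie on the line at 500 bp.

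Where both lists marked a place, the regions often shared a centre, as at GAPDH. Both lists compare the same libraries, so a shared centre is not an independent check of a region. How far shared centres and even flanks follow from the way the regions were called was not tested. Over all 101 pairs of a narrow region and a broad region that it overlapped by at least 1 bp, 86 had the same centre. In 99 of the pairs, that of GAPDH included, the narrow region lay wholly inside the broad one. The centre was the same in 78 of the 79 pairs with a broad region of 500 bp, and all 79 of these narrow regions lay wholly inside. Among the 22 pairs with a wider broad region, 8 had the same centre, that of GAPDH among them. In 20 of these 22 pairs the narrow region lay wholly inside, and the median distance between the centres was 116 bp. The largest distance was 2400 bp, in the broad region of 6140 bp. The GAPDH region was thus one of the wide regions that extended evenly to both sides of their narrow region. The difference between the width classes was not tested, and a narrow region has less room to lie off centre in a region of 500 bp.

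**Figure D3:**
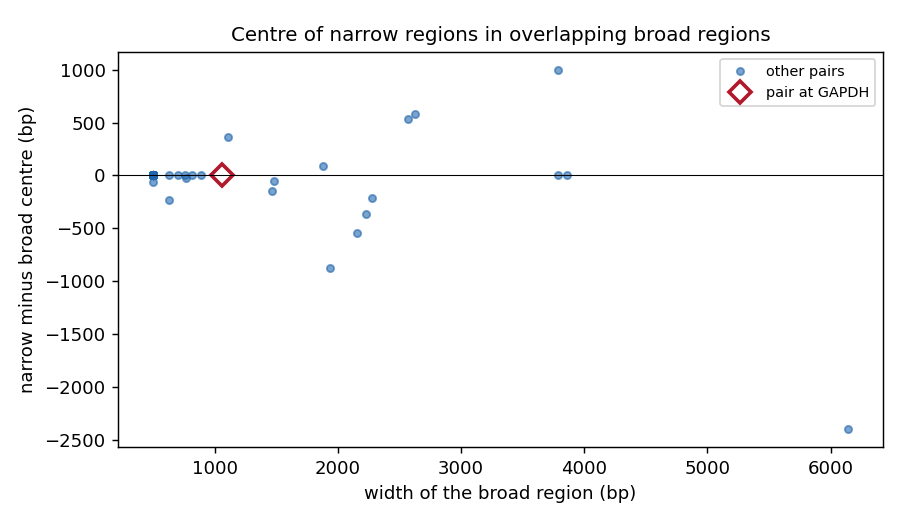
Distance in bp from the centre of each broad region to that of its narrow region (vertical axis) against the width of the broad region in bp, for 101 pairs. The pair at GAPDH (red diamond) is 1 of the 86 pairs at 0, most of them at a width of 500 bp.

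On chromosome 12, which held 10 broad regions, 5 were wide and 2 of these were wider than the GAPDH region. Those 2 measured 1934 bp in 12q21.2 and 1198 bp in 12q21.33. Only 1 broad region of the chromosome, the one of 1934 bp, and 1 narrow region stood before those of GAPDH in the lists. No other wide region lay on the same arm, and the nearest was 69.8 Mb away on the long arm.

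As background, hg19 was cut into windows of 27.3 kb, the median length of the 9 genes with 5 kb on either side. A broad region touched 347 of the 113259 windows (0.306%), a narrow region 2789 (2.46%), and both kinds 105 (0.0927%). The set had 1 gene of 9 with a broad region, 1 of 9 with a narrow region and 1 of 9 with both, the same gene each time. The genes entered the set with that region known, so nothing is read from the gap between these shares. Windows of the genome come from 24 chromosomes, X and Y among them, and include gaps and stretches without genes. No other genes were used as a background. The broad region covered 7.60% of the window of GAPDH and 0.420% of the windows of all 9 genes together. All broad regions together covered 0.00758% of the genome.

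Of the glucose carriers, SLC2A3 came closest to a region. SLC2A3, the carrier with high affinity for glucose, spans chr12:8071824-8088892, and a narrow region at chr12:8109016-8109280 lay 20.1 kb before its start. This was the nearest region outside the 5 kb limit for any of the genes, and GAPDH at 282 bp the only one inside it. That narrow region stood at place 2245 of 2792, against 12 for the one at GAPDH. The nearest broad region to SLC2A3 was the one at GAPDH, 1.42 Mb away. SLC2A1, the carrier of most growing cells, spans chr1:43391046-43424847, with the nearest narrow region 156 kb past its end and the nearest broad region 1.66 Mb before its start.

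ALDOA and TPI1, which act on the hexose and triose phosphates, had no region within 100 kb. ALDOA spans chr16:30064411-30081741, and its nearest narrow and broad regions lay 341 kb and 2.81 Mb before its start. TPI1 spans chr12:6976584-6980110 and lies 329 kb from GAPDH. Its nearest broad and nearest narrow region were both those at the end of GAPDH, 328 kb and 329 kb before its start, so its distances repeat the GAPDH result.

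For the later steps, which make ATP and lactate, the nearest broad region lay from 240.1 kb to 7.27 Mb away. PGK1 spans chrX:77359666-77382324, in the dark band Xq21.1. A broad region of 500 bp at chrX:77119079-77119579 lay 240.1 kb before its start and held a narrow region with the same centre, at places 286 and 850 of their lists. PGK1 was the only gene besides GAPDH and TPI1 with a broad region within 500 kb. ENO1 spans chr1:8921059-8939151, with a narrow region 179 kb before its start and the nearest broad region 5.17 Mb past its end. PKM spans chr15:72491370-72523727 and had the most distant narrow region of the set, 785 kb past its end, with the nearest broad region 2.18 Mb before its start. LDHA spans chr11:18415936-18429765, with a narrow region 148 kb past its end and the most distant broad region of the set, 7.27 Mb before its start.

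**Figure D4:**
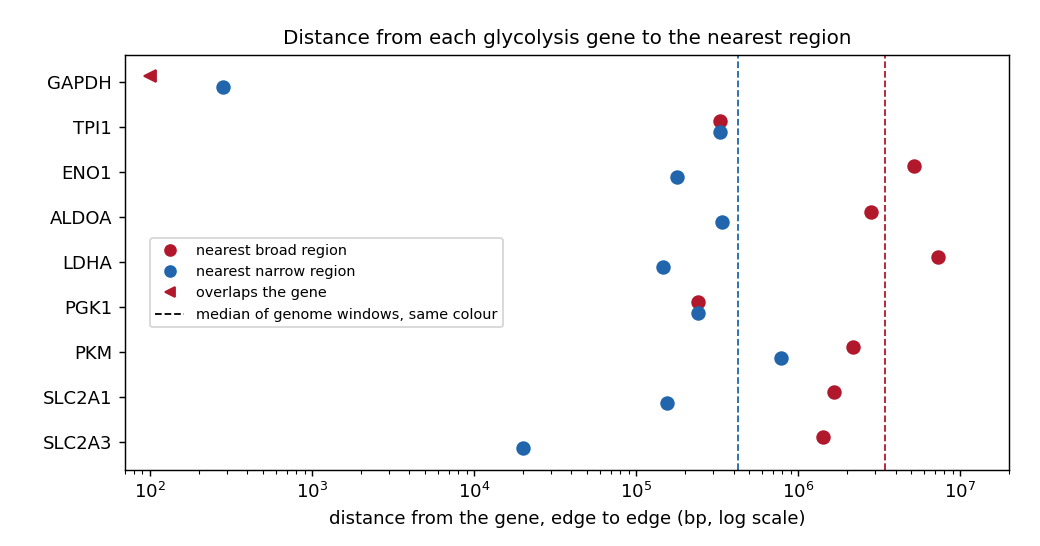
Distance in bp from each gene to the nearest broad (red) and narrow (blue) region on a log axis, with a triangle at the left edge where the region overlaps the gene and dashed lines at the medians of genome windows. The GAPDH points stand alone at under 1 kb, SLC2A3 follows with a narrow region at 20.1 kb, and the other genes lie at 148 kb or more.

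Over the 9 genes, the median distance to the nearest narrow region was 179 kb, beside 425 kb from the centres of the genome windows (10th to 90th percentile 59.6 kb to 1.92 Mb). For broad regions it was 1.66 Mb, beside 3.46 Mb (0.50 to 12.4 Mb). The narrow background used all 113259 windows. The broad one, here and for the 500 kb share below, used the 111087 windows on chromosomes that held a broad region. Apart from GAPDH, the genes ranged from 20.1 to 785 kb for narrow and from 0.24 to 7.27 Mb for broad regions. A gene's distance is counted from its edge and a window's from its centre, which makes the first shorter by part of the gene length. A narrow region lay within 500 kb of 8 of the 9 genes (PKM was the exception), beside 55.2% of windows. A broad region lay within 500 kb of 3 genes, GAPDH, TPI1 and PGK1, beside 10.0% of windows. For GAPDH and TPI1 it was the same region, known when the genes were chosen, so nothing is read from these gaps. GAPDH, TPI1 and SLC2A3 share band 12p13.31 and some of their nearest regions: the 9 genes had 7 different nearest broad and 8 different nearest narrow regions.

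**Figure D5:**
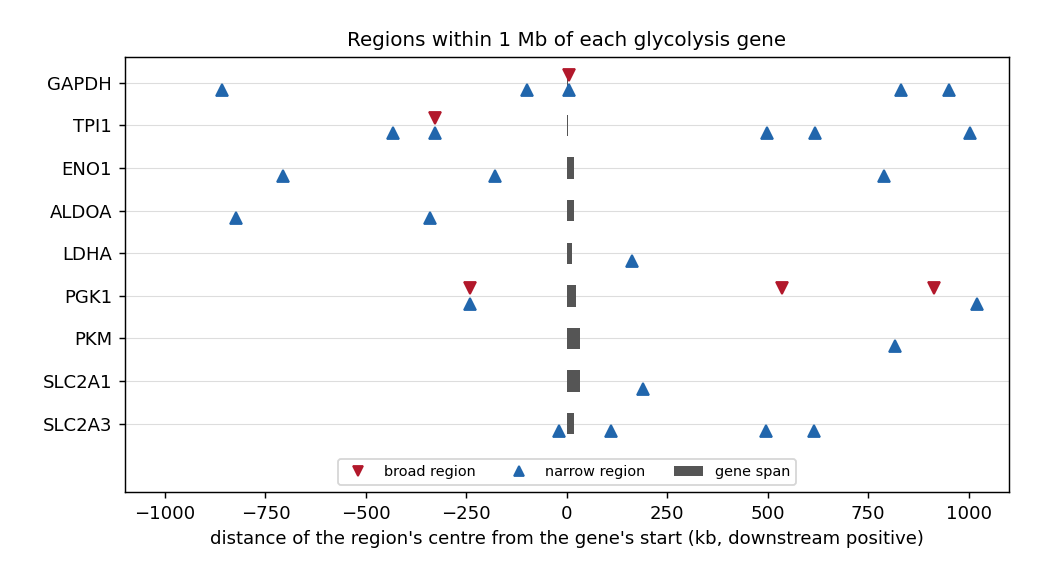
Regions within 1 Mb of each of the 9 genes, drawn as the distance of the region's centre from the gene's start in kb, with broad regions as red and narrow ones as blue triangles and gene spans as grey bars. Only GAPDH has regions within 5 kb, the broad one crossing the end of the gene and the narrow one lying past it. Only GAPDH, TPI1 and PGK1 have a broad region in view, that of TPI1 being the one at GAPDH.

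By chromosome band, 4 of the 9 genes lay in a band with a broad region: PGK1 in Xq21.1, with 4 broad regions of 500 bp, and GAPDH, TPI1 and SLC2A3 in 12p13.31, with 2. The second broad region of 12p13.31 was 500 bp wide, at place 138, and lay 1.78 Mb from SLC2A3. The bands of ENO1, ALDOA, LDHA, PKM and SLC2A1 held none, and all of the bands held narrow regions, from 1 in 1p34.2, the band of SLC2A1, to 14 in Xq21.1. Over all 862 bands of hg19, 29.6% held a broad region, 3.94% a wide one and 82.1% a narrow one.

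Another 25 genes of the pathway could be placed by band only, because their positions came from another build, GRCh38, through bands of the same name. Bands are up to several megabases long, and a region in the same band can lie far from the gene. Over all 862 bands of hg19, each counted once whatever its length, 29.6% held a broad region, 3.94% a wide one and 82.1% a narrow one. Of the 25 genes, 11 lay in a band with a broad region, 4 in one with a wide region and 23 in one with a narrow region. The 4 were PFKL, the liver phosphofructokinase, in 21q22.3, ENO2, the neuronal enolase, in 12p13.31, SLC16A3, a lactate exporter, in 17q25.3, and SLC2A4, the insulin-responsive glucose carrier, in 17p13.1. The wide region in the band of ENO2 was the one at GAPDH, and the band of SLC16A3 differs in length between the builds by more than 100 kb, so that pairing is uncertain. Those of PFKL and SLC2A4 differ by 100 kb or less. The bands of the hexokinase genes HK1 and HK3, of GPI, the phosphoglucose isomerase, and of LDHB and PDK1 held no broad region. The 2 broad regions in the band of HK2, the inducible hexokinase, were both 500 bp wide.

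Of 10 housekeeping genes placed the same way, 4 lay in a band with a broad region and 1 in a band with a wide one. That gene was TUBB, a beta-tubulin, in 6p21.33, the band of the region listed first. The bands of ACTB, PPIA and EEF1A1 held no broad region. The shares of all bands with a broad and with a wide region were 29.6% and 3.94%. Whether the list of other glycolysis genes differs from the housekeeping genes or from all bands was not tested.

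GAPDH also differs from the other genes in its number of pseudogenes, which are non-coding copies. The RefSeq table names 65 pseudogenes of GAPDH, against 0 for SLC2A1 and at most 6, for LDHA, among the other genes. The sources used here do not say how the authors treated reads that match several places. Of the broad region, 10.9% lay inside the gene span, and the whole narrow region lay outside it. The part of such copies in the result was not tested.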

How the data were processed

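HMGB2 was mapped in 1 senescent and 1 growing library, grouped by the cell condition in the labels. Of tools, Bowtie 0.12.9 and HOMER 1.0 stand in the submitters' processing notes, with the build hg19 and no role or order. The sources used here do not give the settings of the region calls, any input control or the treatment of duplicates. The authors deposited 2 lists that, per the file headers, give for each region its identifier, chromosome, start and end in bp, with no score or count. Whether starts count from 0 or 1 is not stated, and width is end minus start.

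Distances ran from edge to edge, with 5 kb as the limit. Gene spans of the 9 genes came with the choice of members, and strands from the RefSeq promoter table, except SLC2A3 (general knowledge). Chromosome lengths and bands came from GenomeInfoDb 1.38.1 and circlize 0.4.16. The other 25 glycolysis and 10 housekeeping genes were joined by band name, and those in bands with a wide region were to be named. The remaining names were chosen after the values were seen, and single results of some listed genes are left out. The members and lists were chosen with earlier results of these data known. On planted data, which check the counting only, 200 of 200 windows and 5 of 5 genes were recovered. Alternatives varied the distance, the part of the list, the midpoint rule, merging, and the window length. Python 3.11.15 was used.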

Additional observations from a re-analysis of the deposited data

How the results depend on the processing

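The count of 1 gene with a broad region was 1 under every alternative run: 0 bp, 1, 10 and 50 kb, the first 182 broad or 1396 narrow rows, the midpoint rule and 1 added to every start. The broad regions at the genes also numbered 1 with regions within 1 kb merged. For narrow regions, genes and regions both numbered 0 at 0 bp, since the region lies past the end of GAPDH, and 2 at 50 kb, which takes in SLC2A3, and 1 otherwise. Broad regions covered 116 bp of the gene spans alone, against 1060 bp with 1, 5, 10 or 50 kb added on either side. By construction, the share of genome windows with a broad region was 0.159% at the shortest and 0.478% at the longest window of the 9 genes (1.24 and 3.87% for narrow regions). In light bands only, 2.35% of windows held a narrow region. The last choice, the added start and the bands of equal length to within 100 kb (3 of the 4 other glycolysis genes with a wide region, without SLC16A3, and TUBB) were chosen after seeing the data. No paired analysis was possible because each condition has 1 library and no result comes from a test. Depth is unknown, so a missing region may reflect a signal under the authors' threshold.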

Other observations

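The identifiers in the lists carry a number within each chromosome, which was 22 for the broad and 4 for the narrow region at GAPDH. On chromosome 12, 1 of the 10 broad and 1 of the 120 narrow regions had a lower number. The sources used here do not say what the number stands for.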
